A study of Mus musculus with 2 samples.

Results

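The subject of this report is 6 genes for serpin protease inhibitors, Serpina3f, Serpina3g, Serpinb1a, Serpinb6a, Serpinb6b and Serpinb9, as read in single cells of the mouse lung. They are the gene rows with those symbols, 6 of 31053 gene rows and 6 of the 61 whose symbol starts with Serpin. They were picked on their measured levels across cell classes and treatments in these same matrices, so those levels are given as a description, with counting intervals and with no test. The 6 genes held 16511 of the 21552 UMIs (unique molecular identifiers, 1 per captured transcript) of all serpin genes, which is 76.6%, and 34 of the 61 serpin genes had no UMI at all.

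Droplet-based 3′ RNA sequencing was run on female C57BL/6J mice, with the lungs of 8 animals pooled for each of 3 treatments. In the asthma pool the mice received ovalbumin (OVA) with the adjuvant Alum into the peritoneum and then OVA through the nose. In the tolerance pool they inhaled OVA before going through that same asthma protocol. In the control pool they received Alum without OVA into the peritoneum and NaCl through the nose. All 3 pools thus share Alum. The age of the mice is not given in the sources used here beyond that they were age-matched. Dendritic cells (DCs), alveolar macrophages and interstitial macrophages were sorted from each pool, tagged with hashtag antibodies, mixed, and run on 2 lanes as technical replicates, so a treatment is 1 pool and no test between treatments is possible.

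The 6 pool-by-lane matrices held 10901 barcodes and between 7897139 and 11459855 UMIs each. Of these barcodes 9856 were kept. Over all barcodes of a matrix, the pool's own hashtag made up 98.5% to 99.2% of the counts of the 3 hashtags. The authors assigned barcodes to pools by these hashtags, so that share is no independent check of the pools. Each cell was put in a class by a gate on marker genes that holds none of the 6 serpins, which placed 8585 cells and left 1271 ungated. Of the placed cells, 97.4% fell in the same class by unsupervised clustering, and 740 of the kept cells lay near the edge of the gate, with a lead over the next class within 0.05 of its threshold of 0.15. The class names are those of the gate. Mature DCs, marked by Ccr7, Fscn1 and Ccl22, numbered 194 in the asthma pool, 66 in the tolerance pool and 28 in the control pool. Conventional type 1 DCs (cDC1, marked by Xcr1 and Clec9a) numbered 134 in the asthma pool, 79 in the tolerance pool and 83 in the control pool. Conventional type 2 DCs (cDC2, marked by Cd209a and Mgl2) numbered 435, 230 and 110 in the same order of pools. Interstitial macrophages numbered 377, 538 and 60, and alveolar macrophages 1628, 792 and 2394. The sort also let through 557 B cells, 25 natural killer (NK) cells and other classes, which were kept as they show where a serpin is low or high.

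A serpin offers its reactive loop to a protease as a substrate, and the cut loop drags the protease across the serpin body and locks it in a dead complex. Members of clade B lack a classical secretion signal and work mainly inside the cell, where they guard against proteases that leak from granules or lysosomes. Serpinb9 blocks granzyme B, Serpinb6b has been described in the mouse as an inhibitor of granzyme A, Serpinb1a blocks neutrophil elastase, cathepsin G and proteinase-3, and Serpinb6a blocks cathepsin G. Serpina3g, also called Spi2A, belongs to the clade of the antichymotrypsins and inhibits lysosomal cathepsins such as cathepsin B in the mouse. Serpina3f is its close relative and neighbour in the genome.

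The 6 genes lie in 2 clusters (GRCm38). Serpina3f spans chromosome 12, 104214544 to 104221129, and Serpina3g follows on the same plus strand at 104236245 to 104241939, with a gap of 15115 bases and no other serpin gene between. On chromosome 13 come Serpinb1a at 32842092 to 32851185 on the minus strand, Serpinb6b at 32965209 to 32979067 on the plus strand, Serpinb9 at 33003250 to 33017957 on the plus strand and Serpinb6a at 33917918 to 34002794 on the minus strand. Serpinb6b and Serpinb9 are direct serpin neighbours, 24182 bases apart, whereas 10 serpin genes lie between Serpinb9 and Serpinb6a.

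The DNA just before the RefSeq start site (up to 250 bases, GRCm38.p6) is shown for the 2 pairs of neighbours. The levels of Serpinb6b and Serpinb9, given after it, ran side by side across cell classes. Serpina3g and Serpina3f were both higher in the OVA pools than in the control pool in alveolar macrophages, and they did not run together in each class. Windows were matched for all of the 6 genes but Serpinb1a. Capitals mark a match to one of 5 motifs that were searched on both strands: the interferon-gamma type GAS element (TTC, any 3 bases, GAA), its STAT6-type form (TTC, any 4 bases, GAA), the core of the interferon-stimulated response element, ISRE (GAAA, any 2 bases, GAAA), the kappaB form (GGGA, any 2 bases, TTCC) and the composite ETS and IRF element (GGAA, any 2 bases, GAAA), which can overlap the ISRE core. Each is written 5′ to 3′ on the strand of its gene. The Serpinb9 window lies within the span of the gene given above, since the RefSeq start site is downstream of the first annotated one, and the Serpinb6b window was cut to 198 bases where an annotated exon begins.
Serpina3g, chr12:104235897-104236146, plus strand: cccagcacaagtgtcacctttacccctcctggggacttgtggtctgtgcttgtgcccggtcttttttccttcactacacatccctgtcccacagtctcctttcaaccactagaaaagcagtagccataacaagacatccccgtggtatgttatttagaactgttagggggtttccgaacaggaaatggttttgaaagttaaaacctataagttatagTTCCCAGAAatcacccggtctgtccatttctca
Serpina3f, chr12:104214294-104214543, plus strand: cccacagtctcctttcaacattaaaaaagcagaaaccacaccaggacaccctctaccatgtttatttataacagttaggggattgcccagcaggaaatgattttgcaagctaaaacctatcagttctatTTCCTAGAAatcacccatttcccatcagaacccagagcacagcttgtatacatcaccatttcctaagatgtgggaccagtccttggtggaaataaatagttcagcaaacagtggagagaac
Serpinb9, chr13:33004291-33004540, plus strand: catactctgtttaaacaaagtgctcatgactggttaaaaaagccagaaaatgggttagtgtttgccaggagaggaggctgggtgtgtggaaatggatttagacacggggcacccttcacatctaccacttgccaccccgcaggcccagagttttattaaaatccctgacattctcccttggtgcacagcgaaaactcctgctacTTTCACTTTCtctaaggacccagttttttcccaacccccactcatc
Serpinb6b, chr13:32965011-32965208, plus strand: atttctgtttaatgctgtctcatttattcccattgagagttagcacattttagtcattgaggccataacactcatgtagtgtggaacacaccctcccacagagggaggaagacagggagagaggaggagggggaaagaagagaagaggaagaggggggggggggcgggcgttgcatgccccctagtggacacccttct

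Serpina3g and Serpina3f each held 1 GAS match, TTCCCAGAA with its first base at -33 and TTCCTAGAA with its first base at -121 from the start site. The Serpina3g window ends at 104236146, upstream of the annotated gene start at 104236245, whereas the Serpina3f window ends at its annotated start. The 2 positions are thus counted from unlike starts. From a second RefSeq start of Serpina3f the same match lies at -210. Serpinb9 held TTTCACTTTC, an ISRE core on the opposite strand, at -46, and no motif of the 5 matched in the Serpinb6b window. One of the 2 Serpinb6a windows, not shown, held a GAS match at -77 and an ISRE core at -84 that overlap, and the other held none. Of all 32851 RefSeq start sites of the mouse, 7.02% held the GAS letters in a window of the same length, 2.98% the ISRE core, 5.85% the STAT6-type form, 1.21% the kappaB form and 2.3% the composite element. A match is a run of letters and says nothing on whether a factor binds there.

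Serpinb9 and Serpinb6b were high in mature DCs and NK cells and low in every other immune class of the sort. In mature DCs Serpinb9 reached 539 counts per 1000000 UMIs of the class (CPM) in the asthma pool, 855 in the tolerance pool and 840.2 in the control pool. Its lanes gave 618 and 461 CPM in the asthma pool, 684 and 1017 CPM in the tolerance pool, and 885 and 801 CPM in the control pool. The lowest of the 6 pool-by-lane values of mature DCs, 461 CPM, thus lay above the highest of cDC1, 80.8 CPM. In cDC1 Serpinb9 was at 44.1, 53.3 and 25.0 CPM in the asthma, tolerance and control pools, with a lowest lane of 15.4 CPM. In cDC2 it was at 11.9, 17.4 and 14.3 CPM in the same pools.

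Over all pools Serpinb9 was 15.1-fold higher in mature DCs than in cDC1 (95% counting interval of the ratio 12.3 to 18.7) and 46.0-fold higher than in cDC2 (36.7 to 58.3). By pool, the ratio of mature DCs to cDC1 was 12.2 in asthma, 16.0 in tolerance and 33.6 in control. The lanes differed more than that interval: without lane 1 mature DCs read 630.3 CPM and cDC1 63.3 CPM, and without lane 2 mature DCs read 654 CPM and cDC1 20.8 CPM. As a mean over the 3 pools, Serpinb9 stood at 745 ± 178 CPM in mature DCs and 40.8 ± 14.4 CPM in cDC1 (SD, n = 3 pools that also differ in treatment). Intervals here and below are exact and cover counting error only. A few cells can carry many UMIs of a gene, which makes them too narrow.

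A Serpinb9 UMI was found in 201 of 288 mature DCs, or 69.8%. In B cells, which received 1 Serpinb9 UMI in 557 cells, the share was 0.180%. Mature DCs were read more deeply, with a median of 5428 UMIs per cell against 1857 in B cells. With each cell thinned to 2000 UMIs the share of mature DCs with Serpinb9 was 53.5% of 271 cells. It was 5.12% of 293 cDC1 and 2.37% of 758 cDC2 at that same depth. Mature DCs carried 57.0% of all Serpinb9 UMIs in the kept cells.

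Serpinb6b followed the same order of DC classes. In mature DCs it was at 634 CPM in the asthma pool, 1023 CPM in the tolerance pool and 1128 CPM in the control pool, with lanes of 594 and 673, 779 and 1253, and 1123 and 1133 CPM. In cDC1 it was at 24.9, 50.7 and 19.7 CPM in the asthma, tolerance and control pools. In cDC2 it was at 2.98, 7.40 and 3.17 CPM in those pools. The mature DC and cDC1 values did not overlap in any pool or lane. Over all pools the ratio of mature DCs to cDC1 was 24.0 (19.1 to 30.7) and that of mature DCs to cDC2 was 174 (118 to 267). By pool the ratio to cDC1 was 25.4 in asthma, 20.2 in tolerance and 57.4 in control.

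Serpinb6b was nearly absent from macrophages. The 975 interstitial macrophages held 2 Serpinb6b UMIs, and the 4814 alveolar macrophages held 9. Mature DCs carried 81.6% of all Serpinb6b UMIs, and single mature DCs reached 55. Serpinb9 was low but detected there, at 8.09 CPM in interstitial and 9.39 CPM in alveolar macrophages.

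Outside the DCs, NK cells were the other class with high levels of both genes. Serpinb9 stood at 1085 CPM in the asthma pool, 1632 CPM in the tolerance pool and 1024 CPM in the control pool, with a UMI in 80.0% of the 25 NK cells. T cells stood at 31.8 CPM over all pools, a ratio of 39.9 for NK cells over T cells (22.9 to 73.2). Serpinb6b in NK cells was at 896, 502 and 384 CPM in the asthma, tolerance and control pools. The class held 12, 8 and 5 cells in those pools, and clustering gave no NK class of its own, so its levels rest on few cells. In NK cells with at least 1200 genes Serpinb9 was at 756 CPM and Serpinb6b at 216 CPM, against 1268 and 667 CPM in all NK cells. In NK cells thinned to 2000 UMIs they were at 750.0 and 250 CPM. The median NK cell held 1721 UMIs, so most of the class did not enter at 2000 UMIs. Endothelial cells came next, with 156, 87.0 and 131 CPM of Serpinb9 and 89.3, 112 and 75.9 CPM of Serpinb6b in the asthma, tolerance and control pools.

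**Figure D1:**
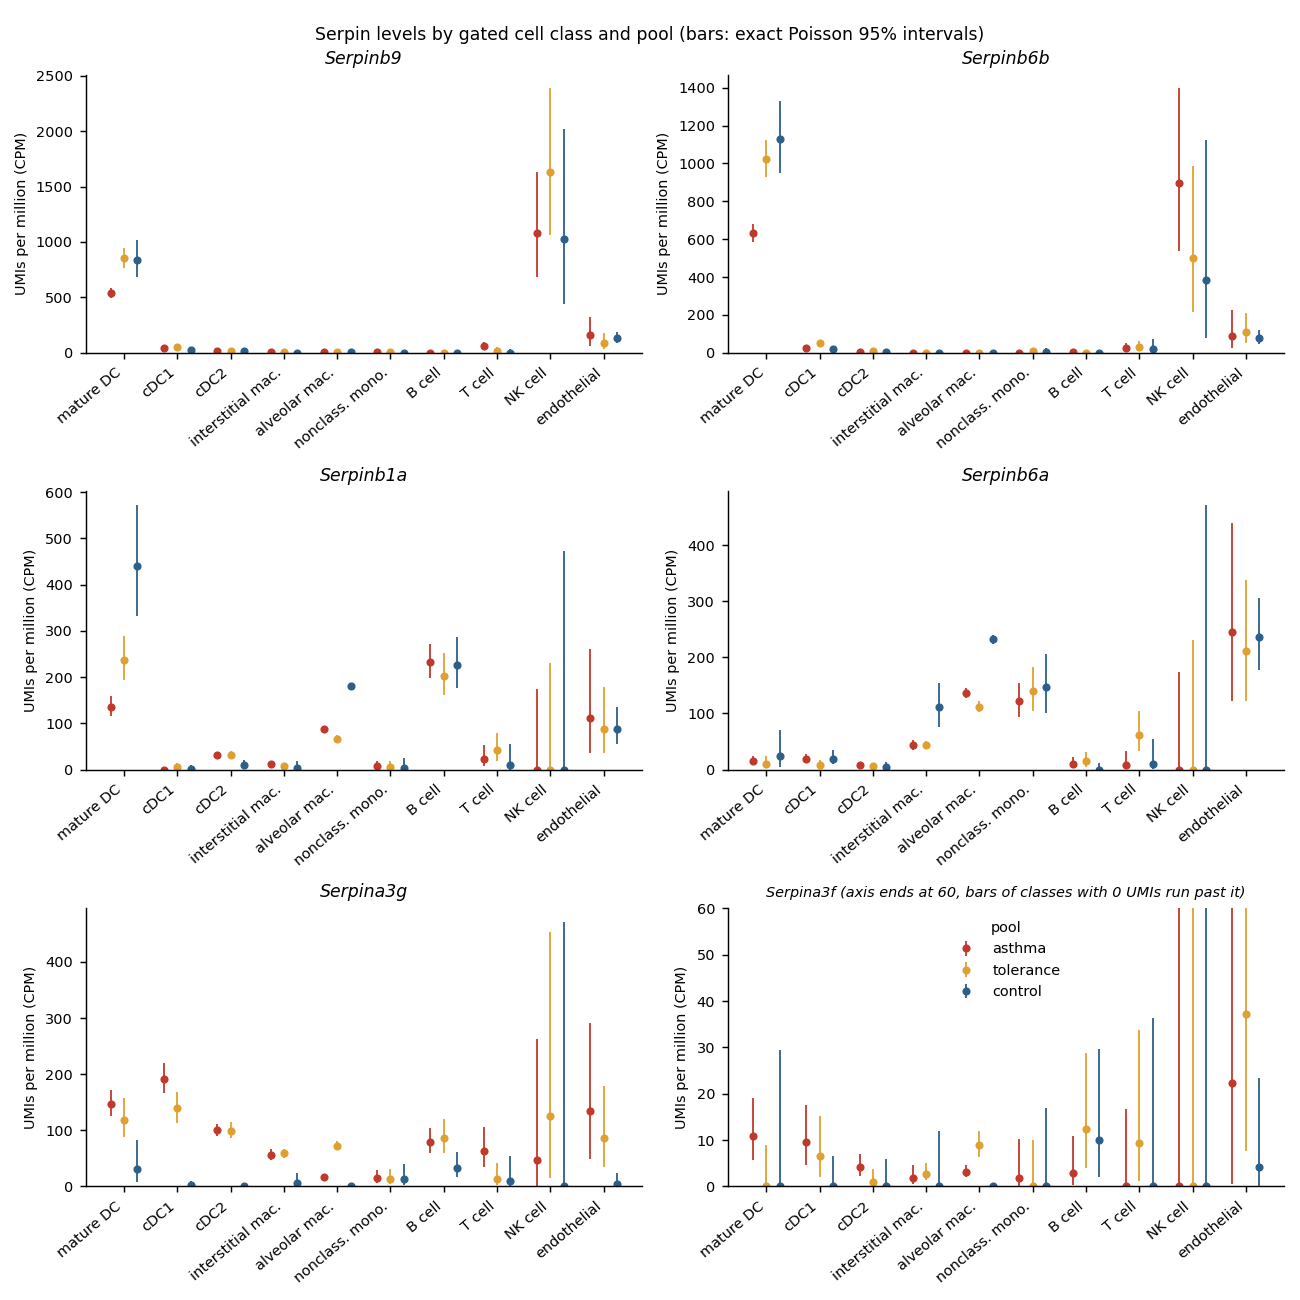
Level of each of the 6 serpin genes (CPM, linear axes from 0, the one of Serpina3f ending at 60) in 10 gated classes, with 1 point for each pool (asthma, tolerance, control) over the sum of both lanes and bars for the exact 95% Poisson interval. Serpinb9 and Serpinb6b are highest in NK cells and mature DCs, Serpinb6a in endothelial cells and alveolar macrophages, and the asthma and tolerance points of Serpina3g lie above the control point in each DC and macrophage class.

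The pair also met in single cells. Of the 288 mature DCs, 159 held UMIs of both Serpinb6b and Serpinb9, 24 held Serpinb6b alone, 42 held Serpinb9 alone and 63 held neither. Serpinb9 was thus found in 86.9% of mature DCs with Serpinb6b and in 40% of those without. At 2000 UMIs per cell these shares were 73.8% and 30.2%. In the asthma pool 100 cells held both and 48 neither, in the tolerance pool 42 and 11, and in the control pool 17 and 4, so cells with both were the most numerous of the 4 kinds in each pool.

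The other members split mature DCs differently. Among mature DCs with Serpina3g, Serpinb6b was found in 46.4% and Serpinb9 in 53.6%, against 72.3% and 78.0% among those without Serpina3g. At 2000 UMIs per cell Serpinb6b was found in 26.8% of cells with Serpina3g and 58.3% of cells without. Among mature DCs with Serpinb1a, Serpinb6b was found in 84.2% and Serpinb9 in 89.5%, against 58.4% and 64.9% among those without. At 2000 UMIs the shares for Serpinb6b were 82.2% with Serpinb1a and 47.8% without. These are shares of cells from 3 pools and not of independent samples, and no test was made on them.

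**Figure D2:**
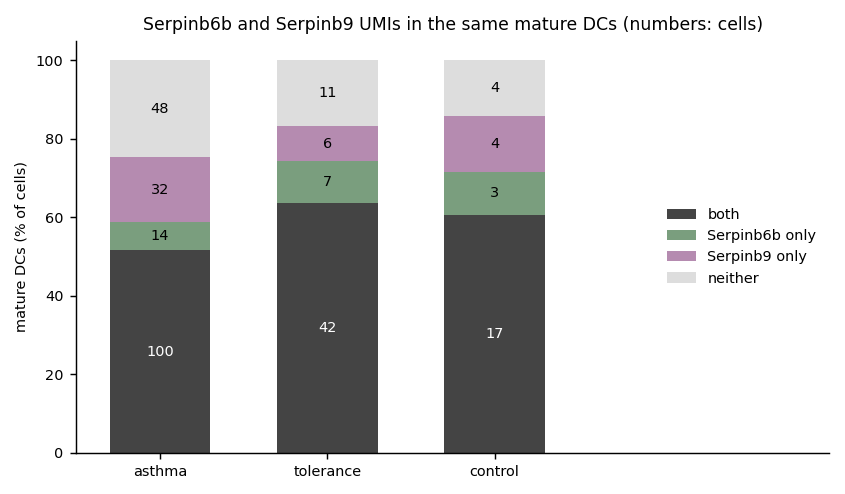
Mature DCs of the asthma, tolerance and control pools by whether they held UMIs of Serpinb6b and Serpinb9, as a percent of the cells of the pool (stacked bars) with the number of cells written in each segment. Cells with both genes are the largest segment in each pool, with 100, 42 and 17 cells.

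Serpinb1a joined them in mature DCs but in fewer cells. Its level in mature DCs was 136 CPM in the asthma pool, 237 CPM in the tolerance pool and 440.1 CPM in the control pool, with lanes of 147 and 125, 314 and 165, and 493 and 393 CPM. A Serpinb1a UMI was found in 57 of 288 mature DCs, 19.8%, and the tenth of the cells with the most UMIs held 86.4% of them. In cDC1 it was at 0, 6.5 and 1.79 CPM in the asthma, tolerance and control pools. No Serpinb1a UMI was seen in the 134 cDC1 of the asthma pool. Over all pools mature DCs stood 73.1-fold above cDC1 (33.2 to 201) and 6.39-fold above cDC2 (5.28 to 7.76).

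Serpinb1a was also found in alveolar macrophages, B cells and endothelial cells. Endothelial cells stood at 112, 87.0 and 88.5 CPM in the asthma, tolerance and control pools. Alveolar macrophages held 74.8% of its UMIs, at 87.5 CPM in the asthma pool, 67.1 CPM in the tolerance pool and 180.3 CPM in the control pool. Interstitial macrophages stood at 12.9, 6.82 and 3.26 CPM in those pools, a ratio of 0.0668 to alveolar macrophages over all pools (0.0504 to 0.0870). In B cells it was steady across pools, at 233 CPM in asthma, 203 CPM in tolerance and 226 CPM in control. The class of mast cells or basophils had 1023 and 1286 CPM in the asthma and tolerance pools, but the class holds 10 cells in all.

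Alveolar macrophages held 84.3% of the Serpinb6a UMIs, and they also held 48.35% of all UMIs. By level endothelial cells stood higher over all pools, at 232 CPM against 180 CPM in alveolar macrophages. In alveolar macrophages Serpinb6a was at 136 CPM in the asthma pool, 112 CPM in the tolerance pool and 232 CPM in the control pool. It was found in 43.0%, 45.5% and 64.9% of alveolar macrophages in those pools. Interstitial macrophages had 43.9 CPM in asthma, 44.7 CPM in tolerance and 111 CPM in control, a ratio of 0.264 to alveolar macrophages over all pools (0.235 to 0.297). The control value of interstitial macrophages rests on 60 cells and 1 lane, since the lanes read 178 and 28.9 CPM. Nonclassical monocytes held 121, 139 and 146 CPM and endothelial cells 245, 211 and 236 CPM in the asthma, tolerance and control pools. In the DC classes Serpinb6a was low, at 14.7 CPM in mature DCs, 15.2 CPM in cDC1 and 7.15 CPM in cDC2 over all pools.

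Serpina3g was higher in both OVA pools than in the control pool in each DC and macrophage class. In cDC1 it was at 192 CPM in the asthma pool, 139 CPM in the tolerance pool and 1.79 CPM in the control pool. The lanes of cDC1 read 139 and 244 CPM in asthma, 98.8 and 168 CPM in tolerance, and 0 and 4.06 CPM in control. The control cDC1 held 1 Serpina3g UMI, so the ratio of 107 for asthma over control has a counting interval of 19.0 to 4256. In cDC2 Serpina3g was at 100.2 CPM in asthma and 99.4 CPM in tolerance, and no UMI was seen in the 110 control cDC2. With that control class set to a floor of 3 counts, Serpina3g in cDC2 was 21.1-fold higher in asthma and 20.9-fold higher in tolerance. The 2 OVA pools read alike in cDC2, with a ratio of 0.992 for tolerance over asthma (0.825 to 1.19).

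In mature DCs Serpina3g was at 148 CPM in asthma, 119 CPM in tolerance and 32.0 CPM in control. The ratios to control were 4.62 for asthma (1.77 to 17.1) and 3.71 for tolerance. In interstitial macrophages the levels were 56.3, 58.8 and 6.53 CPM in the asthma, tolerance and control pools, and in B cells 79.5, 86.5 and 33.8 CPM. The lanes of the OVA pools lay above those of the control pool in mature DCs, interstitial macrophages and B cells. Nonclassical monocytes read 14.7, 13.7 and 13.7 CPM in the asthma, tolerance and control pools, with 16 Serpina3g UMIs in all. Classical monocytes read 34.8, 297 and 25.6 CPM in those pools, on 7, 18 and 24 cells. The 1271 ungated cells held 27.7% of all Serpina3g UMIs, at 103, 131 and 15.1 CPM.

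The 2 OVA pools differed in alveolar macrophages. Serpina3g was at 16.3 CPM in asthma, 72.5 CPM in tolerance and 0.383 CPM in control. Its lanes read 18.8 and 13.8 CPM in asthma, 79.9 and 66.0 CPM in tolerance, and 0.656 and 0.144 CPM in control, with no overlap between pools. The ratio of tolerance to asthma was 4.46 (3.64 to 5.49) in alveolar macrophages, against 0.726 (0.569 to 0.922) in cDC1, where it turned to 1.11 under a stricter gate on markers. The asthma level of cDC1 leans on single cells, since 1 held 33 of the 72 UMIs of lane 1 and another 40 of the 128 of lane 2. A Serpina3g UMI was found in 2.70% of alveolar macrophages in asthma, 9.72% in tolerance and 0.209% in control. Serpina3g in macrophages and DCs was uneven between cells. The tenth of cDC1 with the most UMIs held 89.6% of them, and the same share was 65.6% in mature DCs and 71.8% in cDC2.

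**Figure D3:**
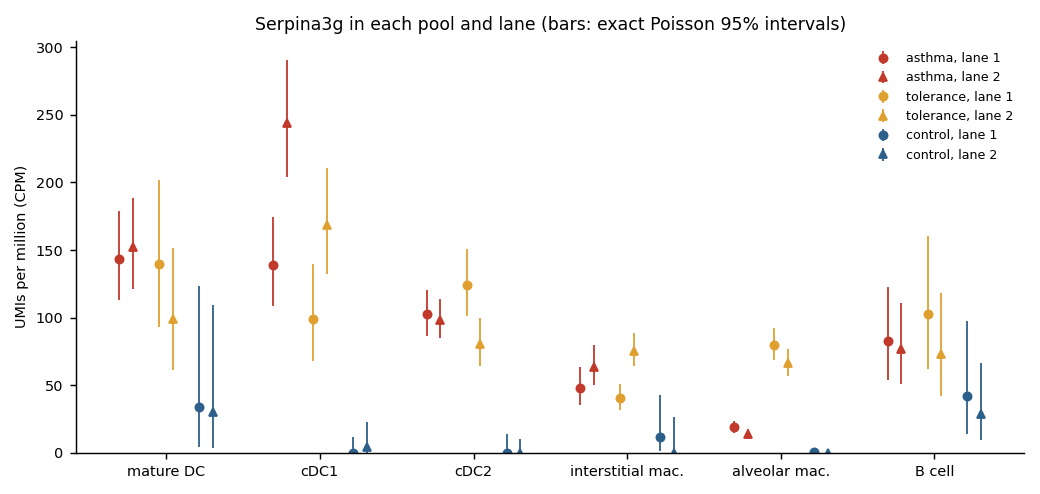
Serpina3g (CPM) in lane 1 (circles) and lane 2 (triangles) of the asthma, tolerance and control pools for the DC and macrophage classes and B cells, with bars for the exact 95% Poisson interval. The control points lie below those of the asthma and tolerance pools in each class, and in alveolar macrophages the tolerance points (79.9 and 66.0 CPM) lie above the asthma points (18.8 and 13.8 CPM).

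The levels of Serpina3g were set beside a list of 10 interferon-induced genes (Isg15, Ifit1, Ifit2, Ifit3, Rsad2, Irf7, Usp18, Oasl1, Mx1 and Cxcl10). The summed level of that list also followed the treatment. It was 646 CPM in asthma, 1043 CPM in tolerance and 21.0 CPM in control alveolar macrophages, and 963, 1149 and 94.7 CPM in cDC1 of those pools. Among alveolar macrophages of the tolerance pool, cells with at least 3 of the 10 genes held 194 CPM of Serpina3g and cells with fewer held 16.8 CPM. In the asthma pool these levels were 42.5 and 8.0 CPM.

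In cDC1 Serpina3g was at 577 CPM in cells with at least 3 interferon-induced genes against 84.5 CPM in the rest of the asthma pool, and at 335 against 54.0 CPM in the tolerance pool. In cDC2 the levels were 226 against 68.9 CPM in asthma and 218 against 68.2 CPM in tolerance. In interstitial macrophages they were 126 against 34.1 CPM in asthma and 100.3 against 35.3 CPM in tolerance. Mature DCs of the tolerance pool differed little, at 121 against 118 CPM, while those of the asthma pool read 267 against 107 CPM. Cells with at least 3 of these genes were read more deeply in all of these classes but cDC2 of the tolerance pool, where the medians were 7781 and 7988 UMIs. In alveolar macrophages of that pool they were 7034 and 5332 UMIs. The part of depth in these differences was not tested. Single cells also weigh on the asthma levels. In cDC1 of that pool 1 cell held 33 of the 72 Serpina3g UMIs of lane 1, and another held 40 of the 128 of lane 2. In its mature DCs 1 cell held 32 of the 78 UMIs of lane 1. The control pool held too few such cells, between 1 and 6 per class, to be compared.

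**Figure D4:**
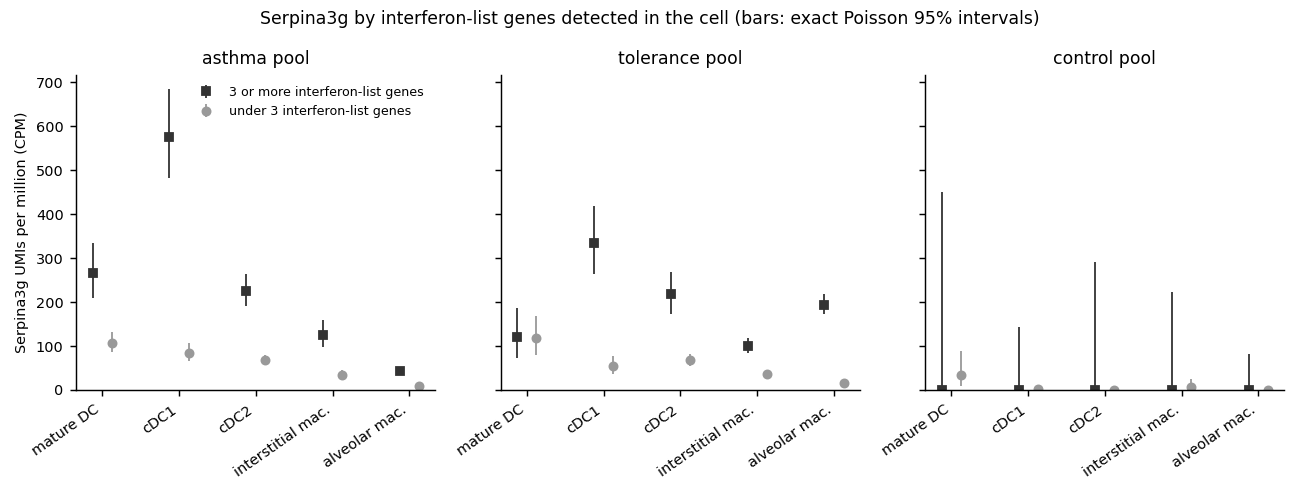
Serpina3g (CPM, bars for the exact 95% Poisson interval) in cells with at least 3 of 10 interferon-induced genes (squares) and in cells with fewer (circles), by class, with a panel each for the asthma, tolerance and control pools. In the asthma and tolerance panels the squares lie above the circles in each class, least so in mature DCs of the tolerance pool (121 against 118 CPM), and the control squares rest on 1 to 6 cells per class with no Serpina3g UMI.

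Serpina3f was rare, with 173 UMIs in 111 cells. In alveolar macrophages it held 25 UMIs in the asthma pool, 43 in the tolerance pool and none in the control pool, which is 3.1, 8.85 and 0 CPM. With the control pool set to a floor of 3 counts, that is 13.5-fold higher in asthma and 38.6-fold higher in tolerance. Tolerance stood 2.85-fold above asthma (1.70 to 4.88). No Serpina3f UMI was seen in control cDC1, cDC2, mature DCs or interstitial macrophages. In mature DCs it had 12 UMIs in the asthma pool, 10 of them in 1 cell. Of the 42 alveolar macrophages with Serpina3f, 33 also held Serpina3g, or 78.6% against 1.95% of those without Serpina3f, and 58.8% against 1.36% at 2000 UMIs per cell. These shares mix the 3 pools. The 2394 control alveolar macrophages held no Serpina3f and included 5 cells with Serpina3g, which lowers the share among cells without Serpina3f. The 2 genes share 101 stretches of 56 bases, of 2205 in Serpina3g transcripts and 2289 in Serpina3f transcripts. The part of such stretches in the joint detection was not tested. Of the stretches of Serpina3g, 13.1% also occur in another gene, Serpina3h, Serpina3i and Serpina3f among them. That share was 7.82% for Serpina3f and at most 1.87% for each of the 4 clade B members. In the last 500 bases of transcripts, which a 3′ assay reads, it was 16.8% for Serpina3g, 1.11% for Serpina3f, 3.85% for Serpinb6b, 3.14% for Serpinb1a, 0.54% for Serpinb6a and 0 for Serpinb9.

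Serpinb9, Serpinb6b and Serpinb1a were lower in the asthma pool than in the control pool in mature DCs, where Serpina3g was higher. The ratio of asthma to control in mature DCs was 0.641 for Serpinb9 (0.520 to 0.797), 0.562 for Serpinb6b (0.468 to 0.678) and 0.309 for Serpinb1a (0.225 to 0.429). Tolerance over control was 1.02 for Serpinb9 and 0.906 for Serpinb6b (0.747 to 1.11), and 0.540 for Serpinb1a (0.384 to 0.765). Tolerance stood above asthma by 1.59-fold for Serpinb9 (1.39 to 1.81), 1.61-fold for Serpinb6b (1.43 to 1.82) and 1.75-fold for Serpinb1a (1.34 to 2.27). The control class holds 28 cells, and its Serpinb1a level rests on few of them, since 1 cell held 14 of the 29 UMIs of lane 1 and another 23 of the 26 UMIs of lane 2. In the tolerance pool 1 cell held 33 of the 63 UMIs of lane 1.

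In alveolar macrophages Serpinb1a and Serpinb6a were lower in both OVA pools than in control. The ratio of asthma to control was 0.485 for Serpinb1a and 0.588 for Serpinb6a (0.548 to 0.630), and that of tolerance to control was 0.372 for Serpinb1a and 0.483 for Serpinb6a (0.440 to 0.529). Both lanes of each OVA pool lay below both control lanes for either gene. In cDC2 Serpinb1a ran the other way, at 31.0 CPM in asthma, 31.7 CPM in tolerance and 9.50 CPM in control, where 6 Serpinb1a UMIs were counted (asthma over control 3.27, 1.45 to 9.10).

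**Figure D5:**
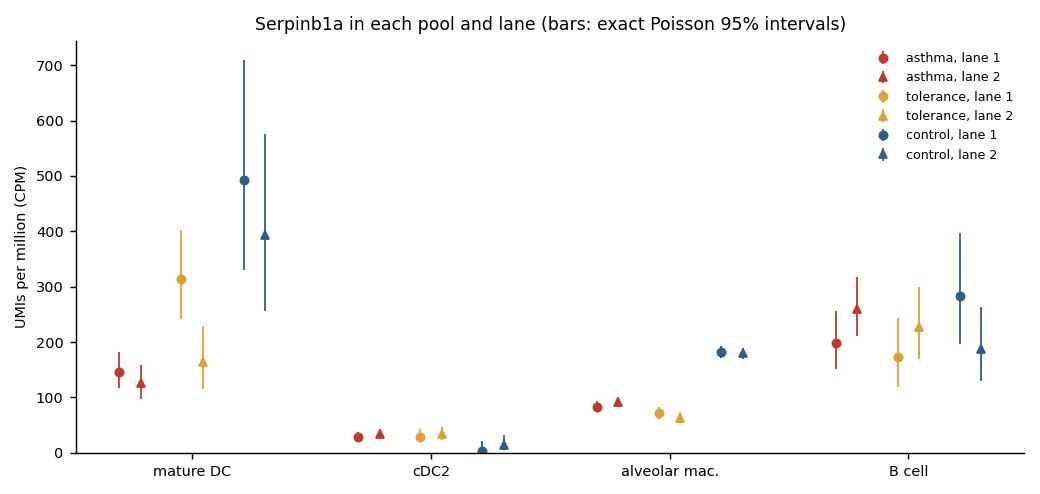
Serpinb1a (CPM) in lane 1 (circles) and lane 2 (triangles) of the asthma, tolerance and control pools, with bars for the exact 95% Poisson interval. In mature DCs and alveolar macrophages the control points lie above those of the asthma and tolerance pools, in cDC2 they lie below, and in B cells the pools overlap.

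These shifts were set against all genes with at least 50 UMIs over the 2 pools compared, as many of them differed between pools. Of the members that entered, Serpina3g passed 2-fold higher in asthma over control in mature DCs, where 12.5% of genes did, in cDC1 (3.24%), in cDC2 (7.9%), in alveolar macrophages (2.84%), in interstitial macrophages (8.29%) and in B cells (1.76%). It also passed in tolerance over control in mature DCs (7.8% of genes), cDC1 (4.42%), cDC2 (6.58%), alveolar macrophages (3.1%) and interstitial macrophages (7.93%). Serpinb1a passed 2-fold higher in cDC2 in both of those comparisons, and Serpinb6b and Serpinb9 in cDC1 in tolerance over control. These cDC1 passes rest on lane 2. Serpinb9 read 80.8 CPM in tolerance and 16.3 CPM in control in lane 2, with 16 of its 36 tolerance UMIs in 1 cell, and 15.4 and 31.9 CPM in lane 1. Serpinb6b read 71.8 CPM in tolerance and 16.3 CPM in control in lane 2, and 21.6 and 22.3 CPM in lane 1. Serpina3f and Serpina3g passed in tolerance over asthma in alveolar macrophages, where 0.462% of genes did, and Serpinb6b in cDC1, where 0.527% did. The Serpinb6b pass rests on lane 2 too, at 71.8 CPM in tolerance and 30.5 CPM in asthma, against 21.6 and 19.3 CPM in lane 1.

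Lower by more than 2-fold were Serpinb1a in asthma over control in mature DCs, where 4.55% of genes were, and in alveolar macrophages, where 2.98% were. In tolerance over control, Serpinb1a and Serpinb6a were lower in alveolar macrophages, with 4.63% of genes. Serpinb6a was lower in interstitial macrophages in asthma over control (3.4% of genes) and in tolerance over control (3.81%), which rests on the control lanes given above. As the members were picked on these levels, the shares are a background and nothing is read from them.

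The other serpins and the proteases that serpins act on were not used to choose the members, and they were tested between cell classes with edgeR's quasi-likelihood test on UMIs summed per class and pool, adjusted by Benjamini-Hochberg over 9997 genes. The p-values measure the spread that is left between class-by-pool sums once class and pool are fitted, over all 12 classes of the fit. The SDs given beside them are over 3 pools that also differ in treatment. Of 55 other serpin genes 6 passed the filter on low counts, and of 19 proteases 12 did. The filter took in all 12 classes, so a gene could enter with no UMI in either class compared, and it could then not be called. That held for Gzma and Gzmb in each comparison of DC classes. It also held for Serpinb9b and Serpinb1b in cDC1 over cDC2, and for Serpinb9b in interstitial over alveolar macrophages. The numbers tested below include such genes.

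In mature DCs over cDC1, 2 of the 6 other serpins were higher and 1 was lower, where 17.9% of all genes were higher and 16.9% lower. Serpinb8, an intracellular relative that can inhibit furin, had no UMI in mature DCs and stood at 25.2 ± 10.9 CPM in cDC1 (SD, n = 3 pools; edgeR adjusted p = 0.000874). Serpinb9b and Serpinb1b, paralogs of 2 of the members, stood at 9.83 ± 12.6 and 5.60 ± 2.87 CPM in mature DCs and at 0 in cDC1 (edgeR adjusted p = 0.00343 and 0.00460). Serpinb9b held 21 UMIs and Serpinb1b 24 over all kept cells, so these calls rest on few counts. Without either lane 1 other serpin was called, without the asthma pool none, and with DESeq2 1. Of the 12 proteases 5 were higher in mature DCs and none lower, none also at an unadjusted p under 0.05. Ctsh, a lysosomal aminopeptidase, stood at 780.3 ± 59.6 CPM in mature DCs and 244 ± 23.7 CPM in cDC1, higher by 1.89 on the log2 scale (edgeR adjusted p = 3.89e-12), and Casp1, the inflammasome caspase, by 1.38. Without the asthma pool 3 proteases were called. Ctsb, the cathepsin B that Serpina3g can inhibit, stood at 263 ± 43.9 CPM in mature DCs and 186 ± 23.4 CPM in cDC1 (edgeR adjusted p = 0.00254).

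In mature DCs over cDC2, 3 of 6 other serpins were higher and none lower, with 19.5% of genes higher and 18.5% lower. Serpinb9b and Serpinb1b were among them, on the same few mature DC counts and both at 0 in cDC2 (edgeR adjusted p = 0.000306 and 0.000190). Without either lane, or without the asthma pool, no other serpin was called in this comparison, and with DESeq2 1 was. Of the proteases 1 was higher and 2 were lower, and 1 in all was called without lane 1 or without the asthma pool. Plau, the urokinase, was lower, at 3.48 ± 4.10 CPM in mature DCs and 9.29 ± 2.57 CPM in cDC2 (edgeR adjusted p = 0.0218). Casp8, the initiator caspase of death receptors, was the other lower one, at 40.7 ± 14.7 CPM in mature DCs and 87.6 ± 12.1 CPM in cDC2.

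In cDC1 over cDC2, 1 of 6 other serpins was higher and none lower, with 7.07% of genes higher and 6.43% lower. It was Serpinb8, by 2.84 on the log2 scale (edgeR adjusted p = 0.00132), and it was not called with DESeq2 or without the asthma pool. Of the proteases none was higher, also at an unadjusted p under 0.05, and 5 were lower in cDC1 (3 without the asthma pool or without the tolerance pool), with Plau at -1.92, Ctsh at -1.73 and Casp1 at -1.22 on the log2 scale. In interstitial over alveolar macrophages, 1 other serpin was higher and 1 lower, with 17.6% of genes higher and 16.3% lower. Serpinb8 was higher in interstitial macrophages, with 25.1 ± 9.69 CPM against 0.303 ± 0.266 CPM in alveolar macrophages (SD, n = 3 pools; edgeR adjusted p = 9.09e-09). Of the proteases 5 were higher in interstitial macrophages and 1 was lower, and without lane 1 the number called was 3. Ctsb stood at 2037 ± 653 CPM in interstitial and 880.3 ± 132 CPM in alveolar macrophages (edgeR adjusted p = 4.89e-08), and Plau and Ctsh were higher by 1.90 and 1.43 on the log2 scale. Prtn3, the gene of proteinase-3, was also among the 5, on 23 UMIs in interstitial and 2 in alveolar macrophages. Ctsl, cathepsin L, passed in none of the 4 comparisons.

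The proteases that the clade B members are known for were found in few of these cells. Gzmb, granzyme B, stood at 1914 CPM in NK cells, 632 CPM in T cells and 2206 CPM in the 10 mast cells or basophils, and no Gzmb UMI was found in mature DCs, cDC1 or cDC2. Gzma, granzyme A, stood at 18000 CPM in NK cells and 325 CPM in T cells, and the T cell levels rest on the 2.81% of T cells with a Gzma UMI and the 7.30% with a Gzmb UMI. A Gzma UMI was also found in 0.166% of alveolar macrophages, a class not known to make it. Ctsg, cathepsin G, had no UMI in any class, and Elane, neutrophil elastase, had 1 UMI, in a classical monocyte. Prtn3 stood at 82.2 CPM in classical monocytes. Among the other serpins, Serpinb8 had 295 UMIs, Serpinh1, a collagen chaperone, 251 and Serpinf1, the pigment epithelium-derived factor, 139.

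Across 30 class-by-pool profiles and 7755 genes, the gene most like Serpinb6b was Serpinb9, with a Pearson r of 0.952 on log2(CPM + 10) and a Spearman rho of 0.841. Next came Gnb4, a G protein beta subunit, with r of 0.905 to Serpinb6b and 0.916 to Serpinb9. The gene most like Serpina3g was Usp18, with r of 0.713, an interferon-induced protease that takes ISG15 off its targets and 1 of the 10 genes of the interferon list. Serpinb1a was most like Snn (0.832), Serpinb6a most like Acvr1b (0.864), an activin receptor, and Serpina3f most like Setd5 (0.761). The neighbours Serpina3f and Serpina3g had an r of 0.545 to each other. The profiles share pools, lanes and depth, and these values are a description of likeness.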

How the data were processed

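The authors sequenced 2 technical 10x lanes of the same 3 hashtagged pools and deposited UMI counts per gene and barcode, a matrix for each pool and lane. Per the labels and the submitters' processing notes, Cell Ranger 3.1.0 with STAR aligned reads to mm10 and Seurat 3.1.5 was used downstream. The deposited counts are not normalized. A read of 56 bases identified the transcript.

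Here 661 barcodes were left out for a mitochondrial share above 20%, 22 for more than 20000 UMIs and 619 for fewer than 500 detected genes, so that 10088 passed (a barcode can meet several of these). Scrublet (scanpy 1.11.5) marked 0.059% and 0.121% of the lanes as doublets with its own threshold, which is too few to have worked. The top 2% of scores in each lane were therefore removed (232 cells). No barcode was found in both lanes. A cell entered the class for which the largest share of markers was detected, with at least 3 markers and a lead of 0.15 over the next class.

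Levels are counts per 1000000 UMIs of the class (CPM), with exact Poisson, Clopper-Pearson and conditional ratio intervals at 95%. Folds against 0 use a floor of 3 counts over the class and pool. They leave out the counting error of the other pool, so they are not lower bounds. Shares of cells were repeated with cells thinned to 2000 UMIs. Other serpins and proteases were tested with edgeR 4.0.16 (R 4.3.3; TMM, filterByExpr, quasi-likelihood, adjusted p under 0.05) in 1 fit of 33 class-by-pool libraries of at least 10 cells, with pool as a block. The fit was checked on simulated counts. DESeq2 1.42.0 was an alternative. Named genes were all 6 members, the 6 other serpins with the most UMIs, the 3 called other serpins and 3 called proteases with the largest fold in each comparison, and proteases known as targets, less some that are not reported here. Alike genes were the 3 with the highest Pearson r over profiles of at least 20 cells, among genes with at least 500 UMIs. The members, lists and tests were chosen with earlier results of these data known.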

Additional observations from a re-analysis of the deposited data

Results flagged for a closer look

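In the following results the ratio between 2 pools lay above 1 in both lanes of one cell class and below 1 in both lanes of another. The lanes are technical runs of the same pools, and the difference between the classes was not tested. For Serpina3g, tolerance over asthma was 4.46 in alveolar macrophages and 0.726 in cDC1, and the cDC1 ratio turned to 1.11 under a stricter gate on markers. Among asthma cDC1, 1 cell held 33 of the 72 Serpina3g UMIs of lane 1, and another held 40 of the 128 of lane 2.

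For Serpinb1a, asthma over control was 3.27 in cDC2, against 0.309 in mature DCs and 0.485 in alveolar macrophages. Tolerance over control was 3.34 in cDC2, against 0.540 in mature DCs and 0.372 in alveolar macrophages. Tolerance over asthma was 1.75 in mature DCs, against 0.767 in alveolar macrophages and 0.527 in interstitial macrophages. The control cDC2 held 6 Serpinb1a UMIs and the control mature DCs 55, of which 1 cell of lane 1 held 14 and 1 cell of lane 2 held 23. In interstitial macrophages lane 1 read 8.50 CPM in tolerance and 21.0 CPM in asthma, where 1 cell held 13 of the 21 UMIs, and lane 2 read 5.30 CPM in tolerance and 6.00 CPM in asthma.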

How the results depend on the processing

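Of 441 values under alternatives for 43 results, 387 stayed close to the value that was reported, 53 moved and 1 reversed. For shares and counts of genes, close means within a set fold of the reported value and not within an interval. The value that reversed was Serpina3g in cDC1 for tolerance over asthma, at 1.11 under the stricter gate against 0.726. Levels and ratios of the members gave 270 of these values, of which 251 stayed and 18 moved. Leaving out a lane or a pool gave 570 to 852 CPM for Serpinb9 and 679 to 1047 CPM for Serpinb6b in mature DCs, both highest without the asthma pool. It gave 0.460 to 0.510 for Serpinb1a asthma over control in alveolar macrophages, which was 0.534 in cells thinned to 2000 UMIs. Serpinb9 in cDC1 was 63.3 CPM without lane 1 and 20.8 CPM without lane 2. Serpinb9 in NK cells was 756 CPM in cells of at least 1200 genes and 750.0 CPM in thinned cells, against 1268 CPM. The thinned cells leave out most of that class.

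Leaving out a lane or a pool gave 22.6% to 35.1% of tested genes called in mature DCs over cDC1 (34.8% with all), 24.2% to 39.3% in mature DCs over cDC2 (38.0%), 5.97% to 15.9% in cDC1 over cDC2 (13.5%, and 7.89% without the tolerance pool) and 20.7% to 40.9% in interstitial over alveolar macrophages (33.9%, and 21.5% without the tolerance pool), each lowest without the asthma pool. With no replicate block for the pools, 31.4%, 33.5%, 9.69% and 26.9% of genes were called in these comparisons, and the pools pair the classes because cells of a pool come from the same mice. The 2 lanes are runs of the same pools and were summed. At 3-fold in place of 2-fold, 13 member calls against control over 6 classes were left of 21, and 1739 genes of 5499. Of 18 pairs of a member and its most alike genes, 5 were shared by Spearman. The number of other serpins called moved in 20 of 56 alternatives and that of proteases in 6 of 56. Serpina3f, with 173 UMIs in all, is the member that depth limits most.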

Other observations

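Mature DCs were split, after the data were seen, by whether they held more cDC1 or more cDC2 markers. The 10 mature DCs with more cDC1 markers held 1145 CPM of Serpinb9, 804 CPM of Serpinb6b and 619 CPM of Serpina3g. That Serpina3g level rests on 40 UMIs in 4 cells. In the asthma pool 3 of 8 such cells held 39 of these UMIs. The tolerance pool had 2 such cells with 1 Serpina3g UMI, and the control pool had no such cell. The 231 mature DCs with more cDC2 markers held 628 CPM of Serpinb9, 744 CPM of Serpinb6b, 195 CPM of Serpinb1a and 108 CPM of Serpina3g, and 47 cells held as many of each. Cells of the unsupervised cDC1 cluster held a mean share of 0.224 of the cDC2 markers, and those of the mature DC cluster 0.236. A lead in cDC2 markers thus does not tell from which DC class a mature DC came. The split was not tested.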
